A study of Mus musculus with 16 samples.

Results

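The genes described here are 9 genes of megakaryocytes and platelets: Pf4, Ppbp, Itga2b, Gp1ba, Gp1bb, Gp5, Gp6, Gp9 and Vwf. Every non-control probe that carries one of these symbols was taken, which gave 11 probes, 1 for each of 8 genes and 3 for Gp1bb. The 9 genes are among 20659 named genes on the array. All 9 passed the filter on dim probes, which kept 28783 features (18665 of them named genes). The arrays measured CD11b+ cells, a preparation meant to hold monocytes, macrophages and granulocytes, isolated from mouse spleen or mouse bone marrow. There were 4 genotypes: wild type (WT), STAT4-/- and STAT6-/- (each lacking a transcription factor of cytokine signalling) and HDC-/- (lacking histidine decarboxylase, the enzyme that makes histamine). The mice had a control diet or a high-fat diet (HFD) for 3 months, which the labels describe as a model of atherosclerosis. Each of the 16 combinations of genotype, tissue and diet was measured once, on 1 array of RNA pooled from 5 mice, all labelled male. There is no second pool of any combination, and the number of arrays limits the precision of every value below. In RNA from a cell population, fewer cells of a type and less RNA per cell cannot be told apart.

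Megakaryocytes are the large polyploid cells of the bone marrow, and in mice also of the spleen, that shed platelets into the blood. Platelets have no nucleus but carry megakaryocyte RNA, and they stick readily to activated neutrophils and monocytes. The chemokines Pf4 and Ppbp are stored in their alpha granules. Itga2b encodes the alphaIIb chain of the integrin that binds fibrinogen and joins platelets to each other. Gp1ba, Gp1bb, Gp9 and Gp5 encode the chains of the GPIb-IX-V complex, with which platelets catch on von Willebrand factor, and Vwf encodes that factor. Gp6 encodes the collagen receptor, which signals through the Fc receptor gamma chain. Vwf is also made by endothelial cells. The other members are used as markers of the megakaryocyte lineage, but which cells of the CD11b+ fraction gave their signal was not tested.

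Megakaryocyte promoters are known for paired sites of GATA1 and of ETS family factors such as FLI1. The promoters of Pf4, Gp1ba and Gp5 are shown because they held a motif of both kinds, and that of Gp1bb because its levels differed most from the others. The promoter of Gp1bb held only ETS motifs, as did those of Itga2b and Gp9, while that of Gp6 held only a GATA motif and that of Ppbp neither. Each runs 5′ to 3′ on the gene's own strand from 250 bases before an annotated transcript start to 50 bases after it, from RefSeq's GRCm38.p6. For Gp1ba, Gp6 and Gp9 the start used lies inside the gene's annotated span and not at its edge, so their motifs depend on that choice. Capitals mark the motif letters searched on both strands, which were AGATAA or TGATAA for GATA and AGGAAG or CGGAAG for ETS; a motif on the other strand reads as its reverse complement.
Pf4, chr5:90772185-90772484, plus strand: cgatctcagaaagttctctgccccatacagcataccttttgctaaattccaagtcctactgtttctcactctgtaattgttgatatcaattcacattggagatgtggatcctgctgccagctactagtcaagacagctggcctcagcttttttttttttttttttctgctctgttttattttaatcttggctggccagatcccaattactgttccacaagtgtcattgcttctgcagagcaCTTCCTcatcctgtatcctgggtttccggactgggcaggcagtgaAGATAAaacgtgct
Gp1ba, chr11:70638872-70639171, plus strand: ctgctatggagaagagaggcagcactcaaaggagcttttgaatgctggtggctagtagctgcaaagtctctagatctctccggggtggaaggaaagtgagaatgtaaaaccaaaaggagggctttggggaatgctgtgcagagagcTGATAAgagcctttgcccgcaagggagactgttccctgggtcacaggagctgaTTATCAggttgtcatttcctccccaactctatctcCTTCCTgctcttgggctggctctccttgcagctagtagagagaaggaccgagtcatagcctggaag
Gp5, chr16:30310732-30311031, minus strand: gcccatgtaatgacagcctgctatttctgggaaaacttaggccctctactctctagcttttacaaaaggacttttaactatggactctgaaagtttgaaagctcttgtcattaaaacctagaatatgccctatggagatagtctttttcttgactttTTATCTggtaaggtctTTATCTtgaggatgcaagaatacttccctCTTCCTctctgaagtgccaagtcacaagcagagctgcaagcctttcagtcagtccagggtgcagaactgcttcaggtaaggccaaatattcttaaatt
Gp1bb, chr16:18622354-18622653, minus strand: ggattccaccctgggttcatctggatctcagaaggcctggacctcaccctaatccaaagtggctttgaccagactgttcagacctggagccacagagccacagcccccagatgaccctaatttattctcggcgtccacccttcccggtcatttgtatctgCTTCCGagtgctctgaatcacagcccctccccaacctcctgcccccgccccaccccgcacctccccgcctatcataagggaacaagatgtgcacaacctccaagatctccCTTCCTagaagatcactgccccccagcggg
A promoter was at hand for 8 of the 9 members, all but Vwf. The GATA letters lay in 4 of the 8 (18.6% of 32851 promoters of the same length hold them), the ETS letters in 6 of the 8 (46.5% of all promoters), and both in 3 (7.70% of all promoters). Counted from the transcript start used, the GATA letters of Gp1ba began at -104 and -51 and its ETS letters at -16. Those of Gp5 began at -93 and -77 (GATA) and at -48 (ETS). These are matches of letters and not measured sites. Pf4 and Ppbp are neighbours on chromosome 5, with 2371 bases between the end of Ppbp and the start of Pf4.

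All values are log2 levels relative to each array's 75th percentile of signal, so that a level of 0 is a probe as bright as that percentile, and a difference of 1 is a doubling. Levels of different genes come from different probes and are not set against each other. Between 59.9% and 85.3% of probes were well above background on each array, and no spot was saturated. The targeted gene Hdc was low on the HDC-/- arrays (0.93 to 1.87, against 4.02 to 5.74 on the others with a usable spot). By its brightest probe, Stat6 lay within the range of the other arrays on the STAT6-/- arrays (2.51 to 2.99, against 2.29 to 4.09). A dimmer Stat6 probe read mostly below the others there (-5.18 to -3.99, against -4.18 to -2.44), and another lay within their range (-2.50 to -1.43, against -2.74 to -0.32). Stat4 was not low on the STAT4-/- arrays (0.37 to 3.46, against -0.93 to 1.28), which are therefore called STAT4-labelled. The Y-linked gene Ddx3y read -9.17 to -5.92 on the 4 control-diet arrays of the STAT4-labelled and HDC-/- mice. On the other 12 it read 0.63 to 2.18. The X-linked gene Xist went the other way, with -2.16 to -1.61 on those 4 and -7.08 to -3.55 on 11 others with a usable spot. Both genes go against the male label of those 4 arrays, and the sex of the mice was not tested. Within the STAT4-labelled and HDC-/- genotypes diet cannot be told apart from this difference. Slides are taken here as the arrays that share a scan date in the file headers. The 4 slides each hold 1 tissue of 2 genotypes (WT with STAT4-labelled, and STAT6-/- with HDC-/-). Tissue thus lies across slides, and both diets of a genotype share one. The array of HDC-/- marrow on the control diet correlated more closely with the spleen arrays than with the other marrow arrays (mean r 0.954 and 0.947), and that of STAT4-labelled spleen on HFD more closely with marrow than with spleen (0.970 and 0.947). Itgam, which encodes CD11b, read 4.70 on that HDC-/- array, 5.34 to 6.0 on the 7 other marrow arrays and 3.10 to 6.0 in spleen.

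The chemokine genes were measured well above background on all 16 arrays. Pf4, platelet factor 4, ran from 0.03 (WT, control diet) through a median of 1.77 to 2.63 (STAT6-/-, control diet) on the 8 spleen arrays. In marrow it ran from 1.55 (HDC-/-, HFD) through 2.95 to 4.83 (HDC-/-, control diet). The marrow arrays were thus mostly the higher ones, with an overlap between 1.55 and 2.63. Ppbp, pro-platelet basic protein, ran from -3.47 (HDC-/-, HFD) through -0.59 to 0.49 (HDC-/-, control diet) in spleen, and from -0.80 (STAT6-/-, control diet) through -0.13 to 4.22 (HDC-/-, control diet) in marrow. The widest range among the 9 genes in either tissue was that of Ppbp, and the HDC-/- arrays held both ends of it in spleen.

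Among the chains of the GPIb-IX-V complex, Gp1ba, which carries the binding site for von Willebrand factor, ran from -4.62 (WT, control diet) through -3.50 to -2.54 (STAT4-labelled, HFD) in spleen. Its marrow levels ran from -3.26 (STAT6-/-, control diet) through -2.35 to 1.21 (HDC-/-, control diet). Gp9, the small chain that helps to bring the complex to the surface, ran from -2.88 through -1.67 to -0.95 in spleen and from -2.0 through -1.37 to 1.20 in marrow. Both genes had their spleen minimum on WT control diet, their spleen maximum on STAT4-labelled HFD and their marrow maximum on HDC-/- control diet. Gp5, the chain that thrombin cleaves, ran from -5.33 through -4.60 to -3.97 in spleen and from -5.48 through -4.33 to -1.53 in marrow. Without its highest marrow array, Gp5 spanned much the same levels in both tissues. Gp1bb, the beta chain linked to Gp1ba, ran from -6.23 through -5.36 to -3.92 in spleen and from -4.66 through -3.97 to -3.66 in marrow. In spleen only the array of STAT4-labelled HFD (-3.92) reached the marrow range of Gp1bb, and its highest array was HDC-/- marrow on HFD (-3.66).

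Of the remaining members, the integrin chain gene Itga2b ran from -4.54 through -4.27 to -3.66 in spleen and from -4.27 through -3.62 to -2.15 in marrow. The collagen receptor gene Gp6 ran from -6.28 through -5.43 to -4.11 in spleen and from -6.20 through -5.20 to -1.38 in marrow. Gp6 was the dimmest relative to background: it was not well above background on 3 arrays (HDC-/- spleen HFD, STAT6-/- marrow HFD and HDC-/- marrow HFD), and Gp5 on 1 (STAT6-/- marrow HFD). Vwf ran from -1.67 through -0.95 to -0.18 in spleen and from -1.99 through -1.11 to 1.34 in marrow. Spleen and marrow levels overlapped for every one of the 9 genes. The 8 members other than Gp1bb varied together over the 16 arrays: as a description, r between their 28 pairs had a median of 0.82 (0.67 to 0.92), and a median of 0.62 (0.28 to 0.94) without the array of HDC-/- marrow on the control diet. The 8 pairs with Gp1bb had a median r of 0.30.

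**Figure D1:**
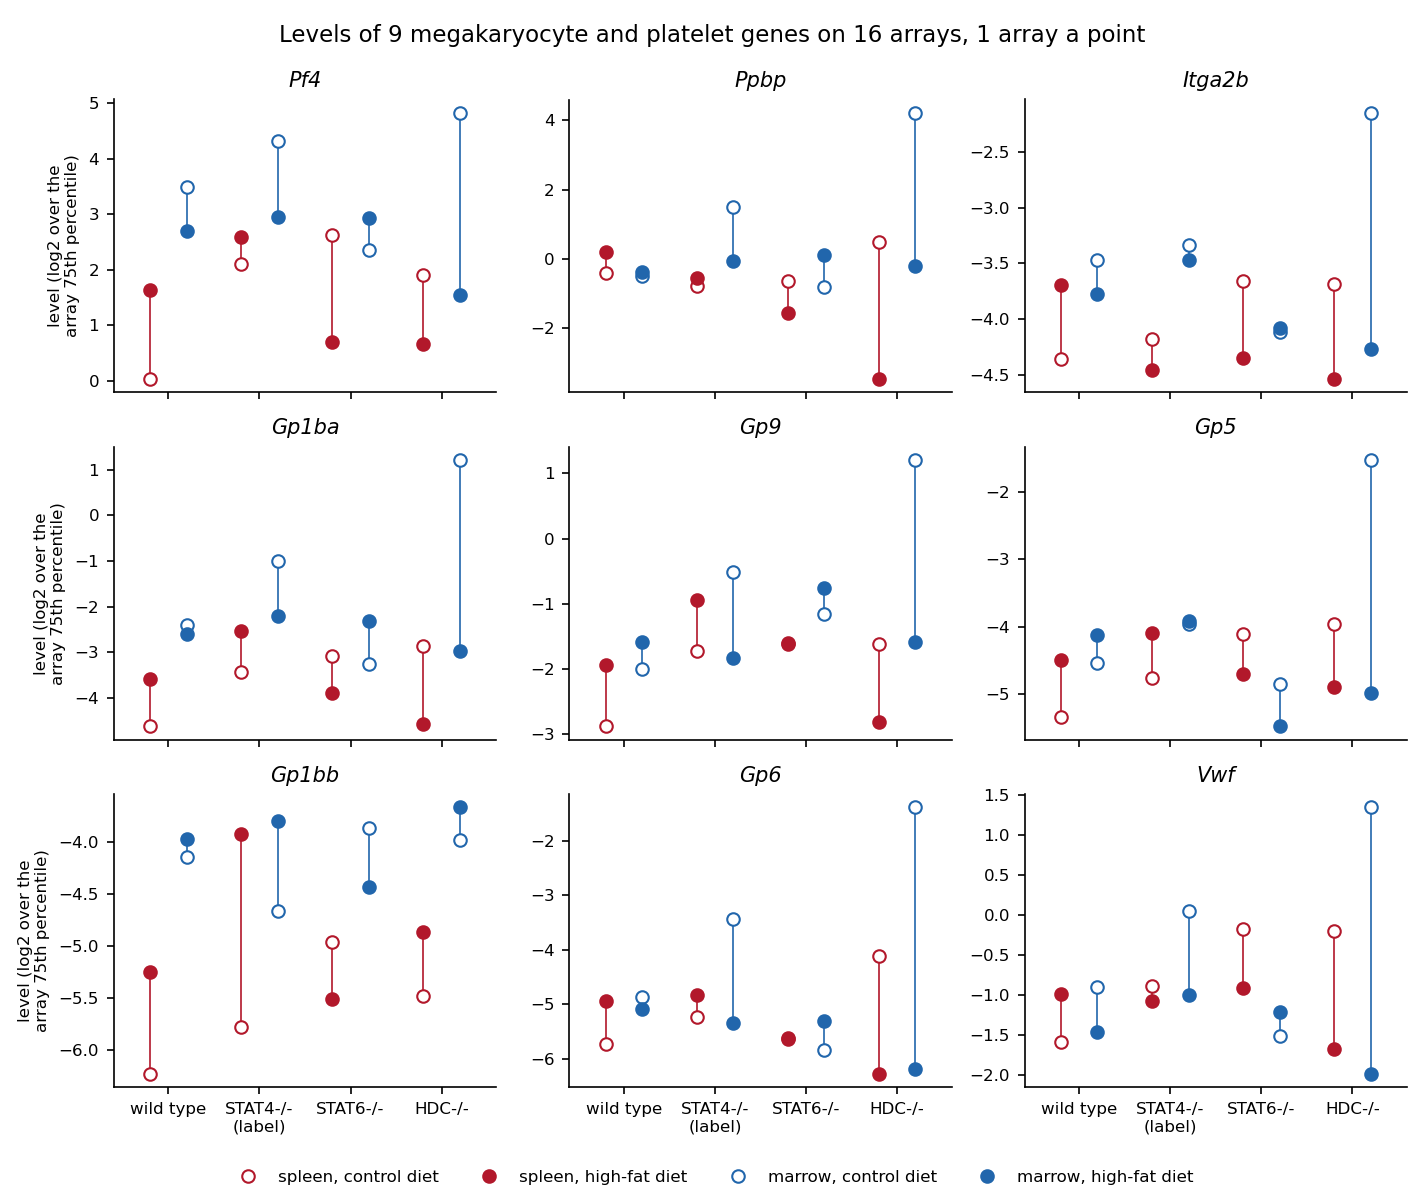
Level of each of the 9 genes (log2 over the array's 75th percentile, own scale for each panel) on the 16 arrays, by genotype; red is spleen, blue is marrow, open points are control diet and filled points HFD, and a line joins both diets of a genotype and tissue. The open blue point of HDC-/- marrow is the highest in every panel but that of Gp1bb.

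The comparison of spleen with marrow asked whether CD11b+ cells of the 2 tissues differed in these transcripts. All 9 estimates were negative, that is lower in spleen, with a median of -0.86 against -0.05 over all features. Gp1ba, Pf4 and Gp1bb passed the test (3 of 9, where 31.9% of all features were called in either direction and 16.8% lower in spleen). Mean Pf4 was 1.53 ± 0.96 (SD, n = 8) over the spleen arrays and 3.14 ± 1.05 (SD, n = 8) over those of marrow, a difference of -1.61 (SE 0.46; 3.06-fold lower in spleen; limma, adjusted p = 0.0247), with the same direction in 7 of 8 pairs of matched genotype and diet. Gp1ba differed by -1.63 (SE 0.52; 3.09-fold lower; adjusted p = 0.037, limma), in 7 of 8 pairs, and Gp1bb by -1.19 (SE 0.27; 2.28-fold lower; adjusted p = 0.00926, limma), in 8 of 8 pairs. The other 6 did not pass: Ppbp -1.32 (adjusted p = 0.132), Gp9 -0.86 (0.111), Gp6 -0.61 (0.417), Itga2b -0.53 (0.165), Gp5 -0.37 (0.514) and Vwf -0.10 (0.853) by the same test.

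The calls were close to the threshold for Pf4 and Gp1ba. Leaving out 1 array in turn ended both calls in 9 of the 16 fits (the arrays of WT spleen on the control diet, STAT4-labelled spleen on the control diet, STAT6-/- spleen on HFD, HDC-/- spleen on HFD, both WT marrow arrays, both STAT4-labelled marrow arrays, and STAT6-/- marrow on HFD), with adjusted p up to 0.0701 for Pf4 and 0.100 for Gp1ba in limma, while Gp1bb was called in all 16. Without HDC-/- spleen on the control diet Ppbp was called as well (adjusted p = 0.0459, limma), and without HDC-/- marrow on HFD so were Ppbp (0.0318), Gp9 (0.0259) and Itga2b (0.0310). Over these 16 fits, 5749 to 10662 of the 28783 features were called between tissues, where 9176 were with all arrays. Without the array of HDC-/- marrow on the control diet all 3 stayed called: Pf4 -1.27, Gp1ba -1.12 and Gp1bb -1.21 (limma, adjusted p = 0.0413, 0.0446 and 0.0128). Over the same 15 arrays the estimate of Gp6 went from -0.61 to -0.08, that of Gp5 to 0.05 and that of Vwf to 0.26. Gp1bb, averaged over its 3 probes, differed by -0.79 and was not called (adjusted p = 0.0685). With the background correction normexp, 8 of the 9 (all but Vwf) were called lower in spleen. That setting also called far more of all features than the 31.9% of the chosen one (count given below). Markers of other cells differed between the tissues too: T cell genes (7 of 8 called higher in spleen and 1 lower, median 3.58), erythroid genes (7 of 14 higher and 1 lower, median 1.40), pro-B and pre-B genes (3 of 11 higher and 5 lower, median -1.16), basophil and mast cell genes (1 of 7 higher and 3 lower, median -0.80) and pan-myeloid genes (3 of 8 lower, median -0.56), with Itgam at -1.29 (SE 0.29). Endothelial genes had 3 of 16 called in each direction (median -0.15). The part of the cell makeup in these differences was not tested, and tissue and slide cannot be told apart.

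**Figure D2:**
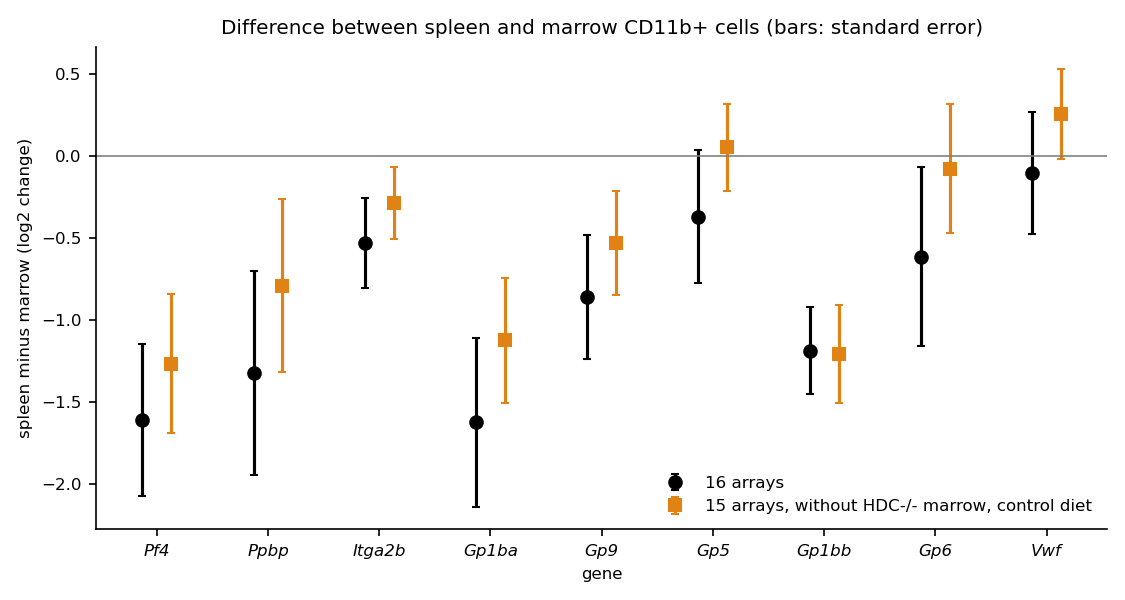
Difference between spleen and marrow (log2, spleen minus marrow) for each gene from limma, with its standard error as a bar; black points are the fit on 16 arrays and orange squares the fit without the array of HDC-/- marrow on the control diet. All black points lie below 0, and without that array Gp5 (0.05) and Vwf (0.26) lie above it.

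Wider lists of platelet genes, which do not hold the 9, are read against the 31.9% of all features that were called and the 16.8% called lower in spleen. Of 16 other platelet surface receptors, 7 were called lower in spleen and 2 higher (median -0.79). They included the ATP-gated channel gene P2rx1 (-1.53) and Clec1b (-1.32), the receptor of podoplanin, on the lower side, and the junctional protein gene Esam (1.73), also an endothelial gene, and the thromboxane receptor gene Tbxa2r (1.25) on the higher side. Of 14 granule and secreted proteins, 4 were lower and 1 higher (median -0.34), with Thbs1, thrombospondin 1 (-2.88), and the coagulation factor genes F5 (-1.43) and F13a1 (-1.07) lower and Egf (1.42) higher. Several of these, such as Thbs1 and F13a1, are also expressed by monocytes and macrophages. Of 10 megakaryocyte transcription factors, 3 were lower, Nfe2 (-1.27), a factor needed for platelet release, and the ETS family members Gabpa (-0.76) and Fli1 (-0.61), and Mef2c was higher (2.11), with a list median of 0.27. Of 22 measured genes of platelet formation, granule biogenesis and signalling, 9 were lower and none higher (median -0.42), among them Ptgs1, cyclooxygenase 1 (-1.56), Cavin2 (-1.55), Nbeal2 (-1.23), which is needed for alpha granules, and the myosin kinase gene Mylk (-0.99). The named genes all had an adjusted p under 0.05 in limma, from 0.000139 for Thbs1 to 0.0497 for Esam.

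One array stood apart. On HDC-/- marrow from the control diet, 8 of the 9 genes, all but Gp1bb, had their highest level of all 16 arrays, where 5.59% of all features did. On that array 7 of the 9 were over 2-fold above every other marrow array (4.19% of all features were). Against the median of the 7 other marrow arrays, Ppbp was higher by 4.43 (21.5-fold; 4.22 against -0.21) and Gp1ba by 3.6 (12.2-fold; 1.21 against -2.40). Gp6 read -1.38 there against a median of -5.31, but that median falls on an array where Gp6 was not well above background, as it was not on 1 other of the 7, so no fold is given. The other chains followed, with Gp5 higher by 3.01 (8.07-fold) and Gp9 by 2.79 (6.92-fold), then Vwf by 2.56 (5.89-fold), Pf4 by 1.89 (3.70-fold) and Itga2b by 1.62 (3.08-fold). Gp1bb differed by -0.01. The median of the 9 was 2.79, where that of all features was -0.57. The array with the next highest level was STAT4-labelled marrow on the control diet for 7 of the 9, with 4.31 for Pf4, 1.5 for Ppbp and -1.0 for Gp1ba. These 2 arrays are also the 2 marrow arrays low in Ddx3y, and the STAT4-labelled one lay among the other marrow arrays in its correlation (0.974 with marrow, 0.957 with spleen). With 1 array there is no test of these differences.

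Markers of other cells were also raised on that HDC-/- array. The mean level of 11 pro-B and pre-B cell genes was 2.01, against -3.86 to 0.04 on the other marrow arrays, and all 11 were at their highest of the marrow arrays. For 7 measured basophil and mast cell genes it was 0.24, against -2.32 to -1.04, with 6 at their highest of the 16 arrays. For 16 endothelial genes it was -2.59, against -4.88 to -3.74, with 9 at their highest of 16, for 14 erythroid genes 0.24 against -1.92 to -0.33 with none at its highest of 16, and for 10 stem and progenitor genes -0.74 against -1.39 to -1.06. The 8 pan-myeloid genes were lower, with 4.31 against 4.69 to 5.2. Their median difference from the other marrow arrays was -0.74, near that of all features (-0.57). The part of these other cells in the levels of the 9 genes was not tested.

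Other platelet genes split on the same array. Members of the wider lists far above the other marrow arrays included Alox12, platelet 12-lipoxygenase (5.24), Myl9, a myosin light chain (4.67), Sparc (4.10), Treml1, a receptor of alpha granules (3.71), Mmrn1, multimerin 1 (3.02) and Tubb1, the beta tubulin of the platelet rim (2.52), all at their highest of 16 arrays. Gata1 (2.84) and Gfi1b (2.79), factors shared with the erythroid lineage, were also higher there than the median of the other marrow arrays. These genes were picked after their values were seen. Over the lists, 4 of 16 surface receptors, 4 of 14 granule proteins, 6 of 22 genes of platelet formation and 2 of 10 transcription factors were at their highest of 16 (5.59% of all features were). The median differences were 0.26, 0.77, -0.55 and 1.01, where that of the 9 genes was 2.79 and that of all features -0.57.

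**Figure D3:**
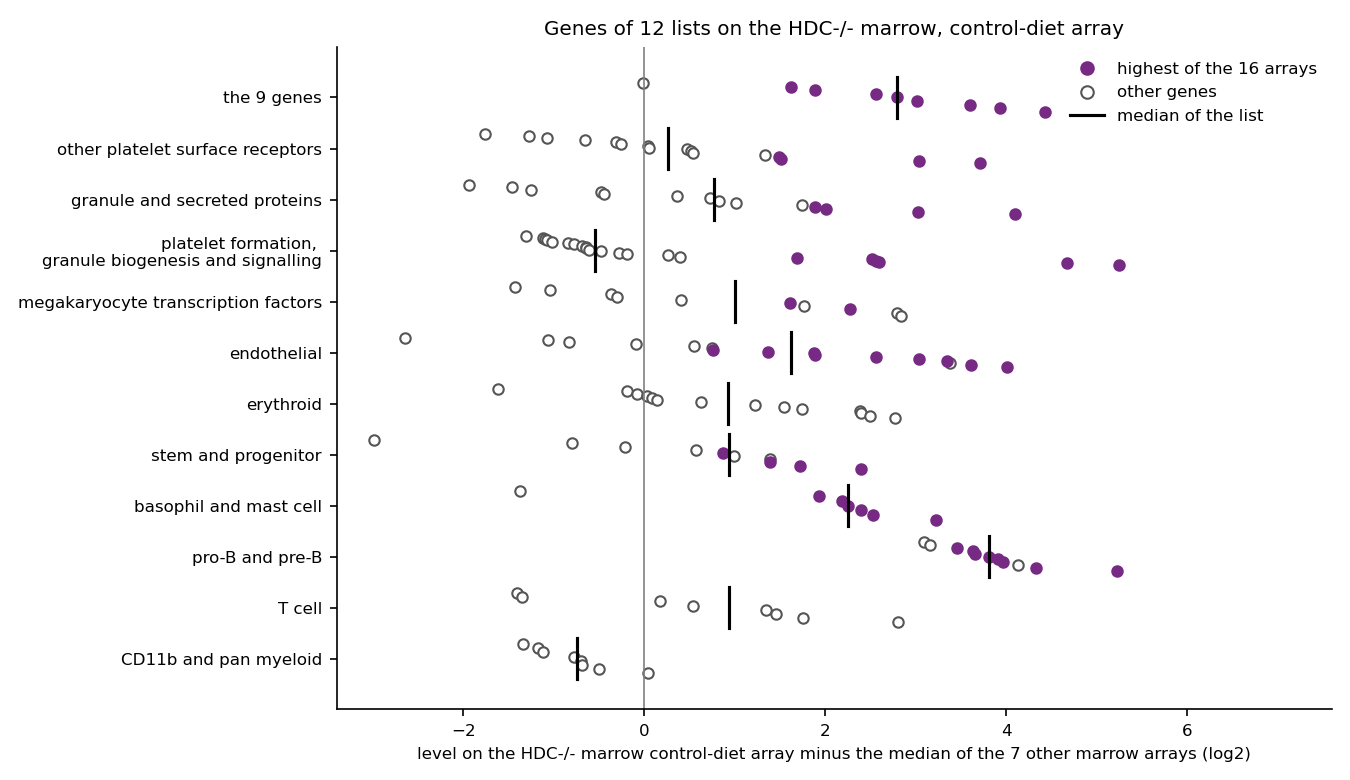
Level of each gene on the array of HDC-/- marrow from the control diet minus its median on the 7 other marrow arrays (log2), by gene list; filled points are genes at their highest of the 16 arrays, open points the others, and the black line is the list's median. The 9 genes (median 2.79), the pro-B and pre-B genes (3.81) and the basophil and mast cell genes (2.25) lie furthest to the right, and the pan-myeloid genes (-0.74) to the left. The median of all features was -0.57.

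The diet comparison asked whether 3 months of HFD changed these transcripts within each tissue. None of the 9 genes was called in either tissue, nor was any feature on the array (0% of 28783; at an unadjusted p under 0.05, 1284 features, 4.46%, in spleen and 1747, 6.07%, in marrow, with no member among them; limma). In marrow 8 of the 9 estimates were negative, with a median of -1.16 against 0.11 over all features, led by Gp6 (-1.6), Ppbp (-1.23) and Pf4 (-1.21), and limma's adjusted p ran from 0.696 to 0.869. Leaving out the array of HDC-/- marrow on the control diet, which leaves its HFD partner out of the estimate, brought Gp6 to -0.53 and Ppbp to -0.16. In spleen 7 of the 9 were negative, with a median of -0.25 against 0.14 over all features, and adjusted p ran from 0.773 to 0.999 in limma. Over both tissues 8 of the 9 were negative, with a median of -0.65, and none was called (0% of features; 12.6% had an unadjusted p under 0.05 in limma, and no member). The difference of the diet effect between tissues was called for none of the 9 (0% of all features; 321 features, 1.12%, had an unadjusted p under 0.05, and no member).

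The 4 genotypes did not move one way. In WT spleen all 9 genes were higher on HFD than on control (median difference 0.83), with Pf4 at 1.63 against 0.03 and Gp1ba at -3.57 against -4.62. In STAT4-labelled spleen 7 of 9 were higher (median 0.48), and in STAT6-/- spleen all 9 were lower (median -0.69), with Pf4 at 0.69 against 2.63. In HDC-/- spleen 8 of 9 were lower (median -1.24), led by Ppbp at -3.47 against 0.49. In spleen the medians were thus positive in the genotypes of one slide and negative in those of the other, where genotype and slide cannot be told apart. In marrow the medians were -0.19 in WT and -1.21 in STAT4-labelled, which share a slide, and 0.39 in STAT6-/- and -3.33 in HDC-/-, which share another. In HDC-/- marrow Ppbp read -0.21 on HFD against 4.22 on control and Gp6 -6.20 against -1.38, which was not well above background on HFD. Over all features the median of such a pair lay between -0.10 and 0.38. The 4 genotypes give 1 pair each in a tissue, and differences between their diet effects were not tested. In WT and STAT6-/- alone, whose arrays do not differ in Ddx3y, the marrow diet estimate of Ppbp was 0.53, of Gp9 0.40 and of Gp1ba 0.38, each of the opposite sign to that over 4 genotypes.

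**Figure D4:**
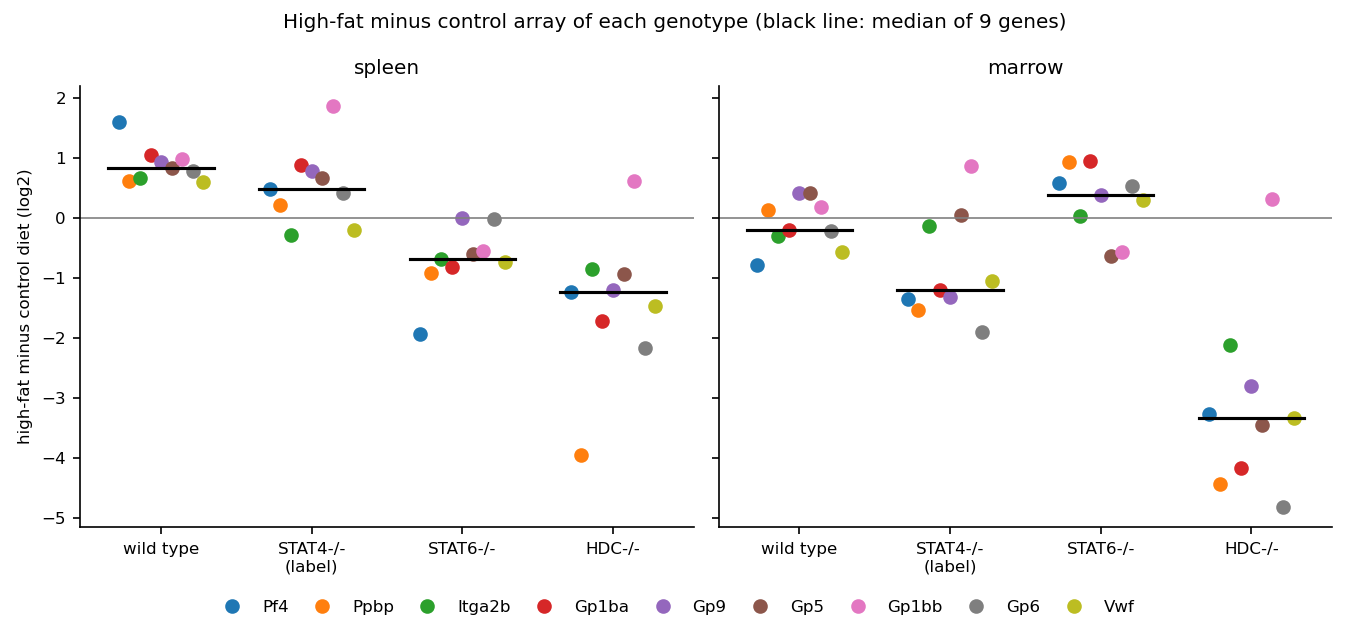
Level on HFD minus level on control diet (log2) for each gene, 1 pair of arrays for each genotype and tissue; colours are genes and the black line is the median of the 9. In spleen the medians are 0.83, 0.48, -0.69 and -1.24 from left to right, and in marrow the HDC-/- pair (-3.33) lies lowest.

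The genotype comparisons, taken over both tissues and diets, called none of the 9 genes. Against WT, the HDC-/- estimates were positive for all 9, from 0.16 (Itga2b, SE 0.39) to 1.0 (Gp1ba, SE 0.73), with adjusted p from 0.588 to 0.911 in limma (0.153% of all features were called, and 10.9% had an unadjusted p under 0.05, with no member in this or the other genotype comparisons). The STAT4-labelled estimates ran from -0.04 (Itga2b) to 1.03 (Pf4, SE 0.65; 0.0174% of features called, 9.94% unadjusted), and those of STAT6-/- from -0.45 (Gp6) to 0.82 (Gp9, SE 0.54; 0.0313% called, 6.83% unadjusted). HDC-/- and STAT6-/- mice, which share slides, differed by 0.08 (Gp9) to 1.11 (Gp6, SE 0.77; 0.0104% called, 6.44% unadjusted). The signs depended in part on the array of HDC-/- marrow on the control diet. Without it 7 of the 9 estimates against WT were negative (median -0.12, against 0.60 with it). Against STAT6-/- 6 of the 9 were negative (median -0.10, against 0.39). The estimates against WT also average over a split by diet. On the control diet all 9 genes were higher in HDC-/- than in WT in both tissues. On HFD all but Gp1bb were lower in spleen, and all but Gp1bb and Ppbp in marrow. Pf4, for instance, differed by 1.88 in spleen and 1.34 in marrow on the control diet. On HFD it differed by -0.97 and -1.15. WT lies on other slides than HDC-/- and STAT6-/-, so there genotype and slide cannot be told apart, and all 3 comparisons with WT share its arrays. Only control-diet arrays of the STAT4-labelled and HDC-/- mice were low in Ddx3y. In comparisons that hold either of these genotypes, genotype and that difference cannot be fully told apart. For the difference of the HDC-/- effect between tissues, no member was called, where 16.4% of features were (28.6% had an unadjusted p under 0.05). The largest member estimate there was Ppbp, at -3.82 (SE 1.77, adjusted p = 0.189, limma), and Ppbp was called when the array of HDC-/- marrow on HFD was left out. The median of all features in that comparison was 0.58, and its calls numbered 0 with quantile or normexp normalization.

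Gp1bb differed from the rest, and its signal is uncertain. In RefSeq's GRCm38 annotation, Gp1bb (chr16:18620319-18622403) overlaps the end of Septin5 (chr16:18621811-18629938), a septin gene, by 593 bases. The level of the brightest Gp1bb probe had r = 0.82 with Septin5 and 0.45 with Gp9 over the 16 arrays, given as a description. For the dimmer 2 probes r was 0.75 and 0.63 with Septin5 and -0.03 and -0.16 with Gp9. On HDC-/- marrow from the control diet, where the other 8 genes peaked, the 3 probes differed from the median of the other marrow arrays by -0.01, -2.76 and -1.65, and Septin5 by -2.64. The dimmer 2 probes were not well above background on 4 and 9 arrays, both including that one. Which transcript each probe reads was not tested, so the call of Gp1bb between tissues is not counted here as a measurement of the GPIb beta chain alone.

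**Figure D5:**
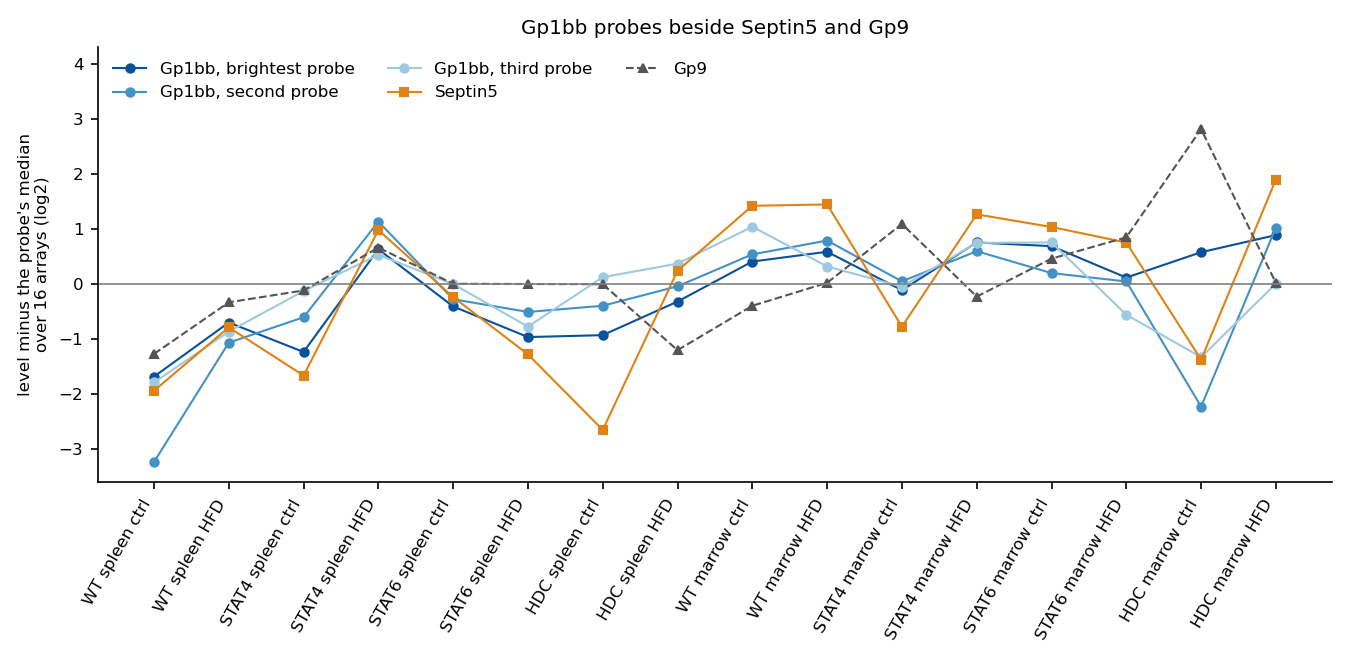
Level minus the probe's own median over the 16 arrays (log2) for the 3 Gp1bb probes (blue), Septin5 (orange squares) and Gp9 (grey triangles); a line joins the values of 1 probe and carries no order. On HDC-/- marrow from the control diet Gp9 is at its highest and Septin5 and 2 of the Gp1bb probes are low.

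Genes whose pattern was most like the mean profile of the 9, among 17155 other named genes well above background on at least 8 arrays, were Mrvi1 (r = 0.964), Treml1 (0.946), Npy (0.938), Rbpms2 (0.938), Mmrn1 (0.917), Cavin2 (0.914), Ripor1 (0.914), Gucy1a1 (0.907), Sparc (0.899) and Rapgefl1 (0.899). The points are the 16 arrays, which share scaling and, in groups of 4, slides. Mrvi1 encodes a partner of the cGMP-dependent kinase and Gucy1a1 a chain of soluble guanylate cyclase, both used in the nitric oxide response of platelets. After the tissue means were taken out, 5 of the 10 were again among the 10 closest, and Gucy1b1, the other cyclase chain (0.924), and Slc6a4, the serotonin transporter that loads platelets (0.920), joined them, with Nanp (0.901), Ltbp1 (0.901) and Pkn3 (0.900). Without tissue centring and without the array of HDC-/- marrow on the control diet, r was 0.74 for Gucy1b1, 0.24 for Slc6a4, 0.19 for Nanp, 0.55 for Ltbp1 and 0.43 for Pkn3. By rank correlation 3 of the 10 remained, and without the array of HDC-/- marrow on the control diet 6 did, Mrvi1 with r = 0.912.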

How the data were processed

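Each file holds one Cy3 array. Per the file headers, the authors' deposited intensity values come from Agilent Feature Extraction 11.0.1.1, whose gProcessedSignal is background-subtracted, with no scaling between arrays. The array design was built on an older genome build than RefSeq's GRCm38.p6, used for names, positions and promoters, which named 27234 of 39429 probes (69.1%). Signals were taken to log2 minus the array's 75th percentile. For each gene the probe of highest mean level was used, and it had to be well above background on 2 or more arrays. Probes with no usable spot on some array (305) were left out.

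limma 3.58.1 (R 4.3.3) fitted 1 mean per genotype and tissue plus 1 diet effect per tissue, leaving 6 residual degrees of freedom, and its two-sided p-values were adjusted by Benjamini-Hochberg over 28783 features, and calls at an adjusted p under 0.05. No combination has a second array, so the p-values measure the spread of the diet pairs around this model. The fit was tested on simulated data. Members, lists and tests were chosen with earlier results of these data known. From the list of transcription factors, 2 genes are not reported here and were left out of its counts. All members and up to 4 called genes per list were named. Files were read with version 1.17.8 of data.table and pandas 2.3.3, and figures drawn with matplotlib 3.10.9.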

Additional observations from a re-analysis of the deposited data

Results flagged for a closer look

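In 4 of 18 sets of 8 arrays (each gene in each tissue), 1 array lay far from the others by Dixon's ratio, the gap to the nearest array divided by the whole range, with a critical value of 0.526 for 8 arrays. All 4 were marrow sets, and in all 4 the array was HDC-/- marrow on the control diet. The ratios were 0.543 for Ppbp (level 4.22), 0.560 for Itga2b (-2.15), 0.603 for Gp5 (-1.53) and 0.537 for Gp9 (1.20). The test is one at 0.05, about the share of sets that chance flags, and the genes share arrays and vary together, so the 4 are not independent. The 8 arrays of a set differ in genotype and diet and are not replicates.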

How the results depend on the processing

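No member was called in a diet or genotype comparison under any alternative run, except Ppbp for the difference of the HDC-/- effect between tissues without 1 array. Between spleen and marrow, Pf4 fell out of the calls with quantile normalization (-1.44) and Gp1bb with the mean of its probes (-0.79), and normexp (offset 50, on median spot signals, since the files hold no mean signal) added Ppbp, Itga2b, Gp5, Gp6 and Gp9. Normexp called 15315 features between tissues (9176 in the chosen setting), 1 for diet in spleen, 1 for diet over both tissues, 15 for STAT4-labelled, 15 for STAT6-/- and 77 for HDC-/- against WT. STAT4-labelled against WT (5 calls) gave 14 with the filter on all 16 arrays, 25 with the additive model, 25 with slide as a random block in it, and 3 without both arrays nearer the other tissue. HDC-/- against WT (44) gave 69 with a variance trend and 19 without those 2 arrays. HDC-/- against STAT6-/- (3) gave 5 with median scaling, 13 with quantile, 10 with normexp, 5 with the filter on all 16 arrays, 5 with the mean of probes, 8 with a variance trend, 13 with the additive model and 13 with the slide block. The difference of the HDC-/- effect between tissues (4732, of which 4726 higher) gave 2073 with median scaling, 0 with quantile, 0 with normexp, 0 with the filter on all 16 arrays and 2190 without both arrays. The causes were not tested.

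Leaving out 1 array in turn gave 5749 to 10662 calls between tissues, 3 to 8 for STAT4-labelled, 3 to 16 for STAT6-/- (9 with all arrays), 7 to 232 for HDC-/-, 2 to 13 for HDC-/- against STAT6-/-, and 0 to 5953 for the difference between tissues. Estimates that changed sign were not called: between tissues Gp5 ran from -0.80 to 0.053 and Vwf from -0.47 to 0.26, for diet in spleen Pf4 from -0.90 to 0.28, Gp1ba from -0.55 to 0.37, Gp5 from -0.28 to 0.30, Gp6 from -0.59 to 0.39 and Gp9 from -0.14 to 0.57, and for diet in marrow Gp1bb from -0.028 to 0.45. Without both arrays nearer the other tissue, Vwf between tissues was 0.21 and Gp9 for diet in spleen -0.088. With only WT and STAT6-/-, diet in spleen gave 0.11 for Gp1ba, 0.12 for Gp5 and 0.38 for Gp6, and diet in marrow 0.53 for Ppbp, 0.38 for Gp1ba, -0.20 for Gp1bb, 0.16 for Gp6 and 0.40 for Gp9. These subsets and the slide block were chosen after seeing the data, and a random slide block could not be estimated in the chosen model, whose means already hold the slides. Spleen and marrow arrays could not be paired by pool, because the labels mark no shared pool. Pairs of matched genotype and diet were only counted. The chosen model matches both diets within a genotype and tissue instead. Signal near background limits Gp6, Gp5 and the dimmer Gp1bb probes.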
